A study of Mus musculus with 384 samples.

Results

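The core pluripotency factors Pou5f1, Sox2 and Nanog were described together with Sall4, Utf1, Dppa4, Tdh and L1td1, genes commonly read as partners or companions of this circuit. The members were given as a list of symbols and found in the count table by Ensembl identifier, which gave 8 of 31617 genes, and the rule uses no measured level. The cells were single mouse pluripotent stem cells, sorted 1 per well and sequenced by Smart-seq2, a protocol that copies full-length mRNA without molecular identifiers. Of 384 cells, 96 came from each of 4 lines. The FS (formative stem) cell lines 5ar1 and 5ar2 grew in AloXR, named A3XR in the sample labels, which holds low activin, the tankyrase inhibitor XAV939 and an inverse agonist of retinoic acid receptors. The EpiSC (epiblast stem cell, primed) line AFX6 grew in AFX, with activin, Fgf2 and XAV939, and the EpiSC line AF32 in AF, with activin and Fgf2 alone. All media hold activin, the labels give no genotype or treatment beyond the medium, and the strain and plate of each line were not given in the sources used here. Lines are the replicates, 2 for each state. The FS lines share 1 medium, and line and plate cannot be told apart between them. Each EpiSC medium has 1 line, so plate, line and medium cannot be told apart between the EpiSC lines. No medium was used for both states, so state and medium cannot be told apart either.

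Cells with at least 3000000 counts were used, 326 in all: 90 of 5ar1, 90 of 5ar2, 66 of AFX6 and 80 of AF32. They held between 3022666 and 6686007 counts, so that 5 CPM (counts per 1000000 counts of the cell) was at least 15 counts. Cells of 5ar1 and 5ar2 had a median of 11371 and 11567 detected genes, against 10328 and 10330 in cells of AFX6 and AF32. Pou5f1, Sox2 and Dnmt3b had counts in all 4 lines, as the pluripotent label implies, while the summed level of 10 measured streak, mesoderm and endoderm markers lay between 9.17 and 64.1 CPM per line and that of 8 neural markers between 118 and 461 CPM. Tubb3 and Nes held most of the latter. As a reference for counts of a gene in cells taken to lack it, 4 Y-linked genes reached 0.547 CPM together in AFX6, 0.278% of their mean in the other lines. Their absence from AFX6 was inferred from these counts. The share was measured in AFX6 alone and was applied to all 4 lines.

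Oct4, the product of Pou5f1, is a POU-domain protein that binds DNA jointly with the HMG-box protein Sox2, and this pair occupies enhancers and promoters of pluripotency genes, their own among them. Nanog is a homeobox protein that acts with them, and its level is known to dip around implantation and to be sustained by activin and Nodal signalling in primed cells. The other genes serve around this core. Sall4 is a zinc-finger protein that associates with Oct4, Utf1 is a chromatin-bound protein of undifferentiated cells, and Dppa4 is a DNA-binding protein that works with its relative Dppa2. Tdh is the mitochondrial threonine dehydrogenase on which mouse embryonic stem cells rely for glycine and acetyl-CoA, and L1td1 is an RNA-binding protein derived from a LINE-1 element.

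RefSeq promoter windows (GRCm38.p6, 250 bases before to 50 bases after a transcription start) were matched for 5 of the 8 genes, Pou5f1, Sox2, Nanog, Utf1 and L1td1. The windows of Nanog and Sox2 are shown because both hold letters of the sites that Oct4 and Sox2 are known to bind. Capitals mark, on either strand, the octamer core TTTGCAT and the SOX cores ACAATG and ACAAAG.

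Nanog, chr6:122707239-122707538, plus strand: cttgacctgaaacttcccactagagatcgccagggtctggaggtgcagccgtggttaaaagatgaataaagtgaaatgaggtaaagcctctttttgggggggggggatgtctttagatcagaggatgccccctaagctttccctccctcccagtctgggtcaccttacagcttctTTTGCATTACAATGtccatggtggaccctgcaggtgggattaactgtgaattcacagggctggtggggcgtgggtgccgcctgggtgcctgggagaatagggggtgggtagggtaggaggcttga

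Sox2, chr3:34649745-34650044, plus strand: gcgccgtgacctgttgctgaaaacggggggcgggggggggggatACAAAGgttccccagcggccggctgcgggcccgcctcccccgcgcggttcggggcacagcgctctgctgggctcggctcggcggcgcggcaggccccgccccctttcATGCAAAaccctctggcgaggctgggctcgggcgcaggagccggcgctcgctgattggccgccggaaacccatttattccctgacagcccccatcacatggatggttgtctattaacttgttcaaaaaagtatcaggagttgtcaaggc

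In the Nanog window shown, the octamer core begins at position -75 from the start and is followed, after 1 base, by ACAATG, so that both cores stand side by side. A second Nanog window, chr6:122707315-122707614, holds the same site, there at position -151. The arrangement TTTGCAT, 1 base and then ACAA was found in 12 of 32851 RefSeq windows (0.0365%), which belong to 10 genes, and Nanog was the only one of the 5 matched genes among them. In the Sox2 window, the octamer core lies on the minus strand, with its first base in the printed direction at position -99, and ACAAAG begins at position -206. Of all windows, 4.63% hold the octamer core, 12.6% ACAATG and 18.7% ACAAAG. One of 2 Pou5f1 windows, chr17:35508557-35508856, holds ACAATG, while the Utf1 and L1td1 windows hold none of these letters. The Sox2 window ends ahead of the GENCODE M21 gene start at position 34650405 and lies along Sox2ot, a longer transcript on the same strand.

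Pou5f1 was high and nearly even in all 4 lines. It lies at chr17:35506018-35510772 on the plus strand. Its level ranged from 3.41 CPM to 1167 CPM with a median of 629.9 CPM over 90 cells of 5ar1, and from 2.05 CPM to 826 CPM with a median of 498 CPM over 90 cells of 5ar2. In EpiSCs it ranged from 1.99 CPM to 998 CPM with a median of 507 CPM over 66 cells of AFX6, and from 1.89 CPM to 1186 CPM with a median of 520.1 CPM over 80 cells of AF32. The lines overlapped almost fully, and the summed counts put 5ar1 highest at 644 CPM and 5ar2 lowest at 490 CPM, with AFX6 (529 CPM) and AF32 (533 CPM) between them. At least 5 CPM was found in 88 of 90, 89 of 90, 65 of 66 and 78 of 80 cells of 5ar1, 5ar2, AFX6 and AF32. A gap separated the remaining 6 cells, at 1.89 to 3.68 CPM, from the next lowest cell of each line, at 273 CPM in 5ar1, 53.2 CPM in 5ar2, 179 CPM in AFX6 and 25.5 CPM in AF32.

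Sox2 was found in a part of the cells of each line, more often in FS cells. It lies at chr3:34650405-34652461 on the plus strand. Over the cells of 5ar1 it ranged from 0 to 74.7 CPM with a median of 11.0 CPM, and over those of 5ar2 from 0 to 91.9 CPM with a median of 11.7 CPM. In AFX6 the range was 0 to 45.7 CPM with a median of 0, and in AF32 it was 0 to 103 CPM with a median of 0.741 CPM. Most FS cells thus had Sox2 counts well above the detection limit while most EpiSCs had none or few, although the highest single cell was an AF32 cell. The share of cells with at least 5 CPM was 68.9% for 5ar1 (95% interval 58.3–78.2%) and 72.2% for 5ar2 (61.8–81.1%), against 21.2% for AFX6 (12.1–33.0%) and 41.2% for AF32 (30.4–52.8%). These are exact Clopper-Pearson intervals, which cover counting error over the cells of 1 line and not the spread between lines. After every cell was thinned to 3000000 counts, at least 1 Sox2 count remained in 82.2%, 83.3%, 37.9% and 57.5% of cells in the same order. Sox2ot, which overlaps Sox2 on the same strand, had 1.09, 1.74, 2.89 and 0.00281 CPM in the 4 lines, and its part in the Sox2 counts was not tested.

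Nanog had the opposite order, with both EpiSC lines above both FS lines. It lies at chr6:122707489-122714633 on the plus strand. In 5ar1 it ranged from 0 to 160.2 CPM with a median of 21.5 CPM, and in 5ar2 from 0 to 145 CPM with a median of 28.0 CPM. In AFX6 it ranged from 0.595 to 802 CPM with a median of 126 CPM, and in AF32 from 0.590 to 1088 CPM with a median of 384 CPM. FS cells formed a low class near 0 and a second class of moderate level, AFX6 spread over the whole range, and most AF32 cells lay at the high end. At least 5 CPM was found in 61.1% of 5ar1 cells (50.3–71.2%), 72.2% of 5ar2 cells (61.8–81.1%), 80.3% of AFX6 cells (68.7–89.1%) and 95.0% of AF32 cells (87.7–98.6%). At least 100 CPM was reached by 4 of 90, 4 of 90, 36 of 66 and 73 of 80 cells. Few cells lay between 1 and 5 CPM, namely 4, 1, 6 and 3 in the same order. The processed pseudogenes Nanog-ps1 and Nanog-ps2 held at most 0.177 CPM in any line.

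**Figure D1:**
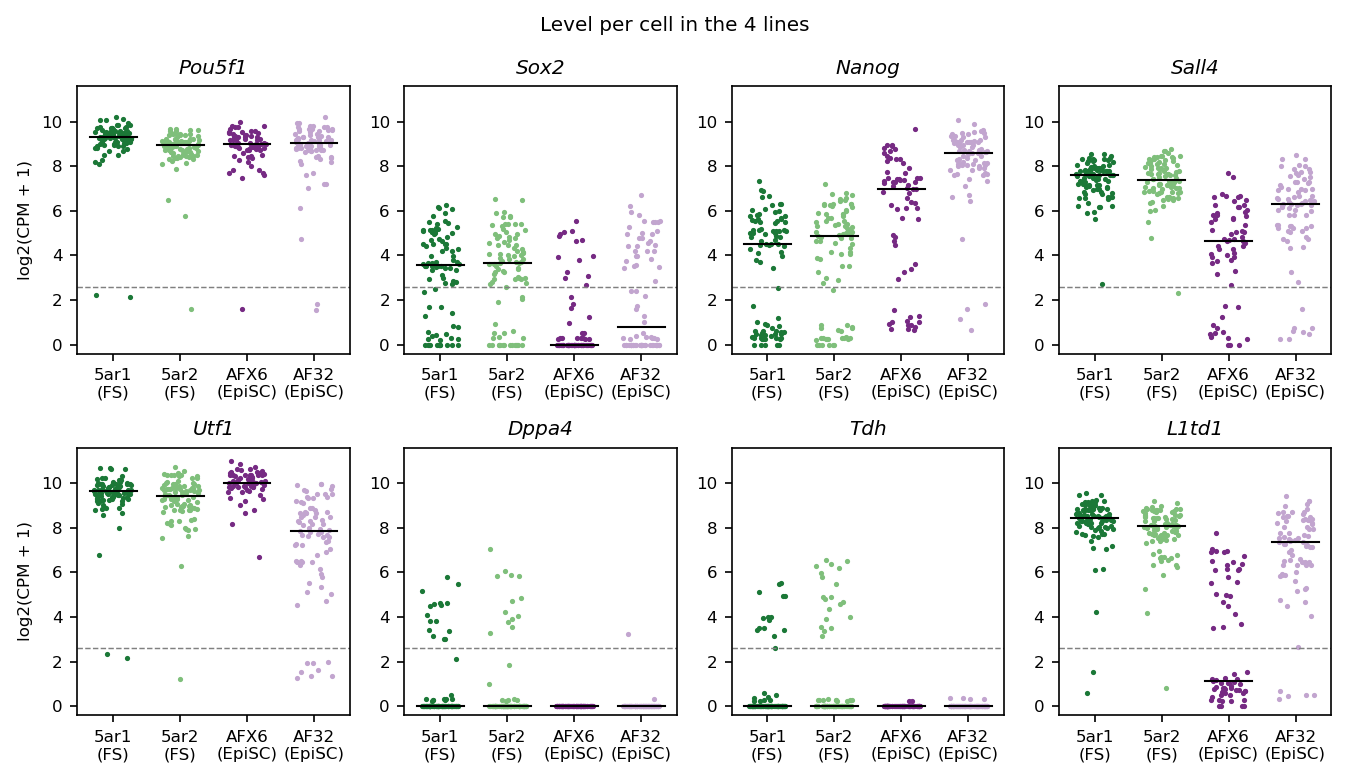
Each point is 1 kept cell of 5ar1 (90 cells), 5ar2 (90), AFX6 (66) or AF32 (80), plotted as log2(CPM + 1) for each gene; black bars are medians and the dashed line is 5 CPM. Pou5f1 sat high in all lines apart from 6 cells, Nanog was higher in both EpiSC lines, and Dppa4 and Tdh were off in nearly all EpiSCs.

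At least 5 CPM of Pou5f1, Sox2 and Nanog together was found in 42.2% of 5ar1 cells (38 of 90, 31.9–53.1%) and 53.3% of 5ar2 cells (48 of 90, 42.5–63.9%). Among EpiSCs it was found in 18.2% of AFX6 cells (12 of 66, 9.76–29.6%) and 40.0% of AF32 cells (32 of 80, 29.2–51.6%). AFX6 had the lowest share, and the intervals of AF32 and both FS lines overlapped. At a limit of 20 CPM the shares were 16.7%, 18.9%, 7.58% and 25.0% in 5ar1, 5ar2, AFX6 and AF32, so that AF32 then had the highest share and AFX6 still the lowest. The product of the 3 separate shares gave 37.0, 46.4, 11.1 and 30.6 cells, within 2 cells of each count. The factor under 5 CPM in EpiSCs was mostly Sox2. At least 20 CPM of Sox2 was found in 32 of 90, 28 of 90, 7 of 66 and 21 of 80 cells of 5ar1, 5ar2, AFX6 and AF32. Fewer genes were detected per cell in EpiSCs, and the part of detection in the Sox2 shares was not tested. Among cells with Pou5f1, Sox2 without Nanog was found in 24 cells (5ar1), 17 cells (5ar2), 2 cells (AFX6) and 1 cell (AF32), while Nanog without Sox2 was found in 17, 17, 40 and 44 cells. None of the 3 reached 5 CPM in 2, 1, 0 and 2 cells. Over all 8 genes, a cell had a median of 6 at or above 5 CPM in 5ar1 and in 5ar2, 4 in AFX6 and 5 in AF32.

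**Figure D2:**
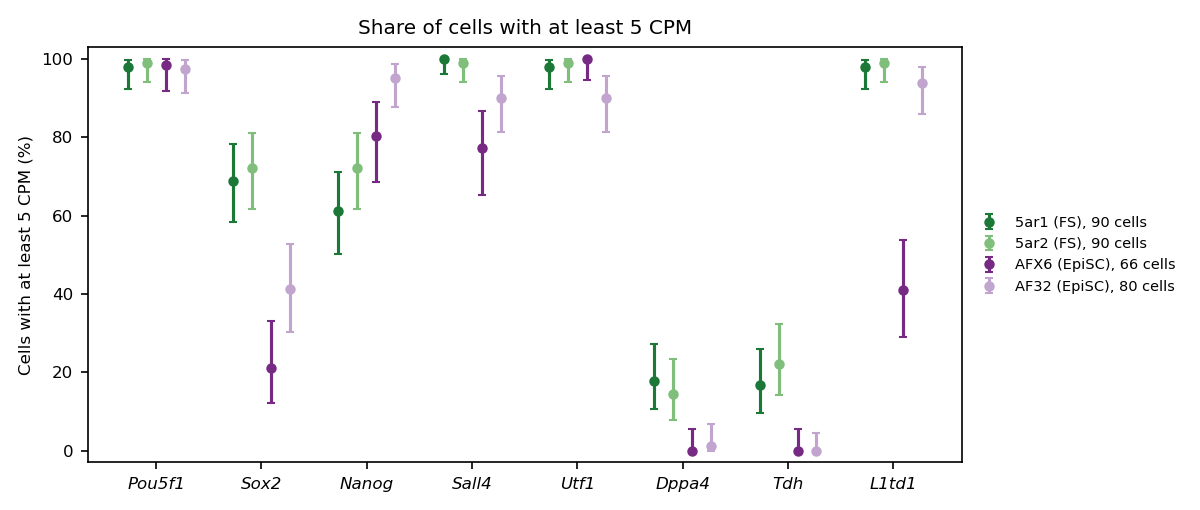
Percent of kept cells with at least 5 CPM of each gene in each line, with exact Clopper-Pearson 95% intervals as bars. Pou5f1 lay above 97% in every line, whereas Sox2 fell from 68.9% and 72.2% in the FS lines to 21.2% in AFX6 and 41.2% in AF32.

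Sall4 was higher in both FS lines than in either EpiSC line. It lies at chr2:168748332-168767943 on the minus strand. It ranged from 5.57 to 377 CPM with a median of 193 CPM in 5ar1 and from 3.92 to 432 CPM with a median of 166 CPM in 5ar2. In AFX6 the range was 0 to 208 CPM with a median of 24.4 CPM, and in AF32 it was 0.195 to 359 CPM with a median of 78.3 CPM. Nearly all FS cells carried Sall4 at 5 CPM or more (90 of 90 and 89 of 90), against 51 of 66 AFX6 cells and 72 of 80 AF32 cells. The summed levels of the FS lines, both 190 CPM to the nearest whole number, had a ratio of 0.996 (exact conditional 95% interval 0.986–1.01), and AF32 held 2.48 times as much as AFX6 (2.43–2.53). Such intervals cover counting error only. Expression of chromosome 2, which carries Sall4, was over 1.2 times the median autosome in 29 of 80 AF32 cells, and the rho of Sall4 with this ratio was 0.07 over those 80 cells.

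Utf1 was high in FS cells, higher still in AFX6 and lowest in AF32. It lies at chr7:139943789-139945112 on the plus strand. It ranged from 3.42 to 1665 CPM with a median of 801 CPM in 5ar1 and from 1.31 to 1717 CPM with a median of 696 CPM in 5ar2. In AFX6 it ranged from 104 to 2033 CPM with a median of 1043 CPM, and in AF32 from 1.38 to 1007 CPM with a median of 233 CPM. The EpiSC lines thus lay on either side of the FS lines, and AFX6 held 3.50 times the summed level of AF32 (3.47–3.52). Utf1 was at 5 CPM or more in every AFX6 cell but in 72 of 80 AF32 cells.

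L1td1 lies at chr4:98726734-98738480 on the plus strand. It ranged from 0.526 to 748 CPM with a median of 342 CPM in 5ar1 and from 0.747 to 589 CPM with a median of 266 CPM in 5ar2. In AF32 the range was 0.255 to 687 CPM with a median of 162 CPM. AFX6 stood apart, with a range of 0 to 219.7 CPM and a median of 1.21 CPM. Of 66 AFX6 cells, 28 were under 1 CPM, 11 lay between 1 and 5 CPM and 27 had at least 5 CPM, so that AFX6 fell into a class without L1td1 and one with it. The carry-over reference, 0.278% of the mean in the other lines, was 0.760 CPM for L1td1 in AFX6. AF32 held 6.38 times the summed level of AFX6 (6.25–6.51).

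Dppa4 and Tdh were on in a minority of FS cells and close to absent from EpiSCs. Dppa4 lies at chr16:48283733-48294237 on the plus strand, and Tdh at chr14:63492347-63509092 on the minus strand. Dppa4 reached 5 CPM in 16 of 90 cells of 5ar1 and 13 of 90 of 5ar2, with a highest value of 53.5 CPM and 130.0 CPM and a median of 0 in both. It had 0 counts in all 66 AFX6 cells, for which 3 counts would be 0.00902 CPM, and 39 counts in AF32, of which 38 were in 1 cell at 8.56 CPM. Tdh reached 5 CPM in 15 of 90 cells of 5ar1 and 20 of 90 of 5ar2, with a highest value of 44.6 CPM and 91.8 CPM and again a median of 0. In EpiSCs it had 2 counts over AFX6 and 4 over AF32, or 0.00601 and 0.0112 CPM, where the carry-over reference was 0.011 CPM in both. The EpiSC levels of Tdh thus lay near or below the reference. Over the summed counts the ratio of FS cells to EpiSCs was 80.3 for Dppa4 (58.6–113) and 679 for Tdh (312–1850), where the intervals cover counting error only. Between the FS lines Tdh had the largest ratio of the 8 genes, with 2.63 times the level in 5ar2 (2.47–2.80).

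**Figure D3:**
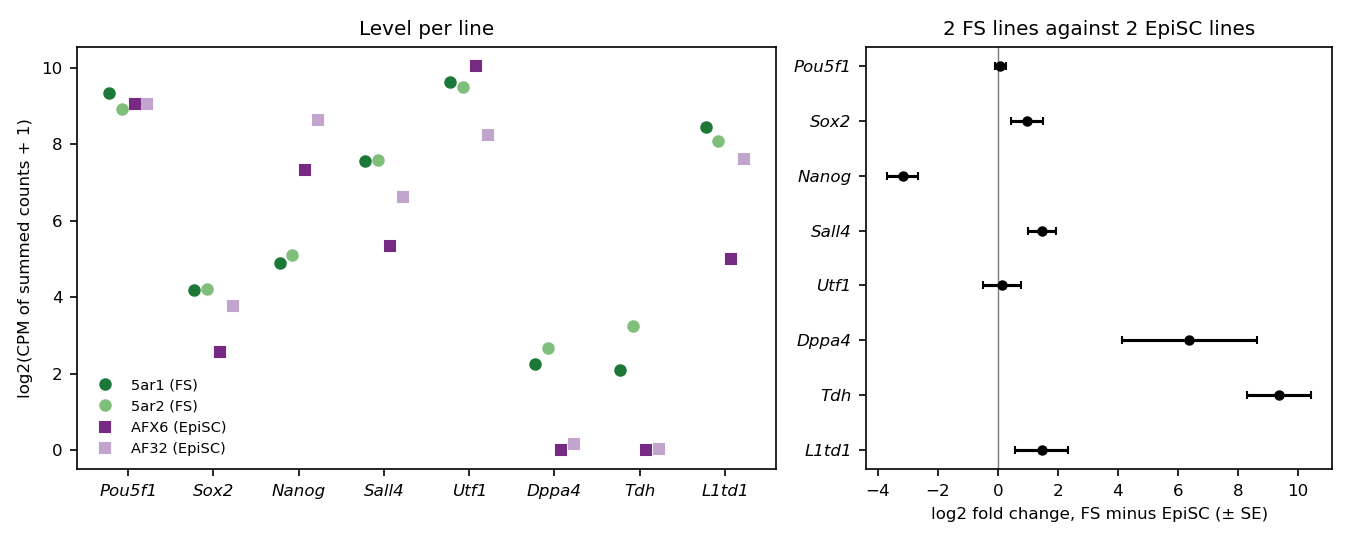
Left, CPM of the summed counts of each line as log2(CPM + 1), circles for FS and squares for EpiSC lines. Right, log2 fold change of the 2 FS lines over the 2 EpiSC lines from edgeR, where Nanog lay at -3.17 and Pou5f1 at 0.09. Bars are standard errors derived from the fold change and its F statistic.

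FS cells and EpiSCs were then compared with lines as replicates, 2 against 2, in the edgeR quasi-likelihood test over 22606 genes. Nanog was lower in FS cells, at 31.0 ± 3.54 CPM (SD, n = 2 lines) against 279 ± 171 CPM (SD, n = 2 lines), a log2 fold change of -3.17 with a standard error of 0.51. Standard errors here were derived from the fold change and the F statistic of the test. Tdh, Dppa4, Sall4, L1td1 and Sox2 had log2 fold changes of 9.36 (standard error 1.07), 6.38 (2.25), 1.48 (0.46), 1.46 (0.89) and 0.99 (0.53), so that FS lines were higher, whereas Pou5f1 (0.09, 0.19) and Utf1 (0.14, 0.63) differed little on average. The fitted values of Tdh and Dppa4 rest on few EpiSC counts and depend on the prior count. Without AF32 the log2 fold changes were -2.39 for Nanog, 1.80 for Sox2, 2.24 for Sall4, 3.30 for L1td1, 13.8 for Dppa4 and -0.51 for Utf1. Without AFX6 they were 0.68 for L1td1, 5.39 for Dppa4 and 1.35 for Utf1, and without 5ar2 that of Tdh was 8.49. None of the 8 genes, and 0 of all 22606 (0%), passed a Benjamini-Hochberg adjusted p of 0.05 with a log2 fold change over 1.4. The lowest adjusted p among the 8 was 0.19, for Nanog and for Tdh, with unadjusted p of 0.0028 and 0.000716 from the edgeR model. By unadjusted p under 0.05, 4 of the 8 (Tdh, Nanog, Sall4 and Dppa4) stood beside 3636 of all genes (16.1%).

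The lines of the states did not overlap for 6 of the 8 genes, 5 of them with FS lines higher (Sox2, Sall4, Dppa4, Tdh and L1td1) and 1 with EpiSC lines higher (Nanog). Over all genes tested, the FS lines lay above both EpiSC lines for 26.6% and the EpiSC lines above both FS lines for 21.7%. An exact permutation of 2 lines against 2 cannot give a two-sided p under 0.333. DESeq2 in place of edgeR called 4 of the 8, Nanog (log2 fold change -3.20, adjusted p = 1.07e-07), Tdh (9.38, adjusted p = 3.32e-19), Dppa4 (6.35, adjusted p = 0.00278) and Sall4 (1.45, adjusted p = 0.0374). It called 8.12% of all genes with an adjusted p, 3.93% with FS cells higher and 4.19% with EpiSCs higher, and did not call Sox2, L1td1, Pou5f1 or Utf1. The spread of the EpiSC group includes the difference between its media. Sox2, Nanog, Sall4 and L1td1 were 2.61-fold (2.47–2.77), 2.52-fold (2.50–2.55), 2.48-fold and 6.38-fold higher in AF32 than in AFX6, where Pou5f1 differed by 1.01-fold (1.00–1.01).

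Levels of different genes can be set beside each other only per length. Per kilobase of exonic sequence, Utf1 had the highest level of the 8 in all lines, at 651, 589, 862 and 246 CPM per kb in 5ar1, 5ar2, AFX6 and AF32. Pou5f1 came next at 286, 218, 235 and 237 CPM per kb, close to Utf1 in AF32. In FS lines the order went on with L1td1 (111 and 85.6 CPM per kb), Sall4 (34.2 and 34.4), Nanog (12.7 and 15.0) and Sox2 (8.45 and 8.50). In AF32, Nanog ranked next after Pou5f1 at 178 CPM per kb, ahead of L1td1 at 62.0, Sall4 at 17.6 and Sox2 at 6.20 CPM per kb. In AFX6 it had the same rank, at 70.8 CPM per kb, followed by L1td1 at 9.73, Sall4 at 7.09 and Sox2 at 2.37 CPM per kb. Sox2 was the lowest of the 3 core factors in every line.

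The spread over cells was set beside the trend of all genes with at least 5 CPM on average in a line, since the coefficient of variation (CV) falls with level. Pou5f1 had a CV of 0.309, 0.327, 0.383 and 0.448 in 5ar1, 5ar2, AFX6 and AF32, which was 1.01, 1.06, 0.803 and 1.05 times the trend. Its evenness was thus that of a gene of its level. Utf1 was more variable than its level implied in 5ar1 (1.3 times the trend), 5ar2 (1.79) and AF32 (1.74) but not in AFX6 (0.831). In 5ar2 and AF32 its distance from the trend exceeded that of 98.4% and 97.4% of genes. Nanog lay on the trend in the FS lines (1.00 and 1.04 times) and above it in AFX6 (1.52) and AF32 (1.2). L1td1 was above the trend in all 4 lines (1.10 to 1.37 times). Sox2 fell below it in the 3 lines where it had a value (0.741 to 0.864 times), although its many cells without counts gave it a CV of 1.06 to 1.56 there. Dppa4 and Tdh passed the mean of 5 CPM in 5ar2 only, at 1.57 and 1.4 times the trend. Dppa4 lay near this limit, with a mean of 5.60 CPM, and its highest cell in 5ar2 was at 130 CPM. The part of that cell in the Dppa4 mean and ratio was not tested.

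**Figure D4:**
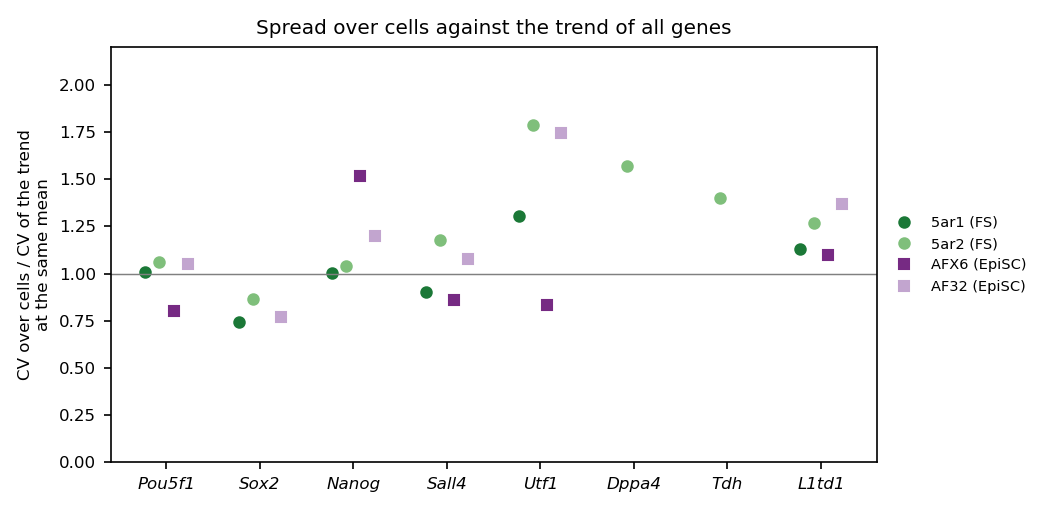
Ratio of each gene's CV over cells to the CV of the trend of all genes at the same mean, for lines where the gene had at least 5 CPM on average; circles are FS and squares EpiSC lines. Utf1 in 5ar2 (1.79) and AF32 (1.74), Dppa4 in 5ar2 (1.57) and Nanog in AFX6 (1.52) lay highest above the line at 1, and Sox2 lay below it in 3 lines. Dppa4 had a mean of 5.60 CPM in 5ar2, near the limit of 5 CPM.

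Covariation over the cells of a line was weak. Of 28 pairs of the 8 genes, 21 had a Spearman's rho in all 4 lines, the pairs with Dppa4 having none in AFX6, and 0 had a rho over 0.2 in all 4. Among 16580161 pairs of the 5759 genes with at least 20 CPM on average in each line, 0.117% did. A count of 0 among the 21 pairs is near this share. Sox2, Dppa4 and Tdh reached 20 CPM on average in no line, so their pairs lie outside this reference set. The median rho over pairs was 0.06 and 0.07 in 5ar1 and 5ar2, and -0.01 and -0.02 in AFX6 and AF32. Pou5f1 and Sox2 had a rho of 0.09, 0.14, 0.16 and -0.11 in 5ar1, 5ar2, AFX6 and AF32. Pou5f1 and Nanog had -0.07, 0.06, -0.18 and 0.22, and Sox2 and Nanog 0.05, 0.01, 0.02 and -0.03. The sign of each of these 3 pairs thus changed between lines.

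The highest values were found in single lines. Pou5f1 and Utf1 reached 0.35 in AF32 and 0.25 in 5ar2 but -0.19 in AFX6, and Utf1 and L1td1 reached 0.32 in 5ar1 with 0.17, -0.01 and 0.18 in 5ar2, AFX6 and AF32. The lowest was -0.31 for Sox2 and L1td1 in AF32, a pair with 0.25 in 5ar1. Nanog and Sall4 were the only pair above 0 in all 4 lines (0.08, 0.15, 0.10 and 0.14), and Nanog and Tdh the only pair below 0 in all 4 (-0.11, -0.10, -0.20 and -0.04), where Tdh had counts in 2 AFX6 and 4 AF32 cells. After regression of ranks on total counts and detected genes, Pou5f1 and Utf1 remained at 0.37 in AF32 and Utf1 and L1td1 at 0.29 in 5ar1. L1td1 had a rho of 0.34, 0.25, 0.28 and 0.33 with the number of detected genes, and Sox2 one of 0.32, 0.39, 0.17 and -0.07, and the part of detection in their other values was not tested. Cells of a line share their culture and sort, and no test was made over cells.

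**Figure D5:**
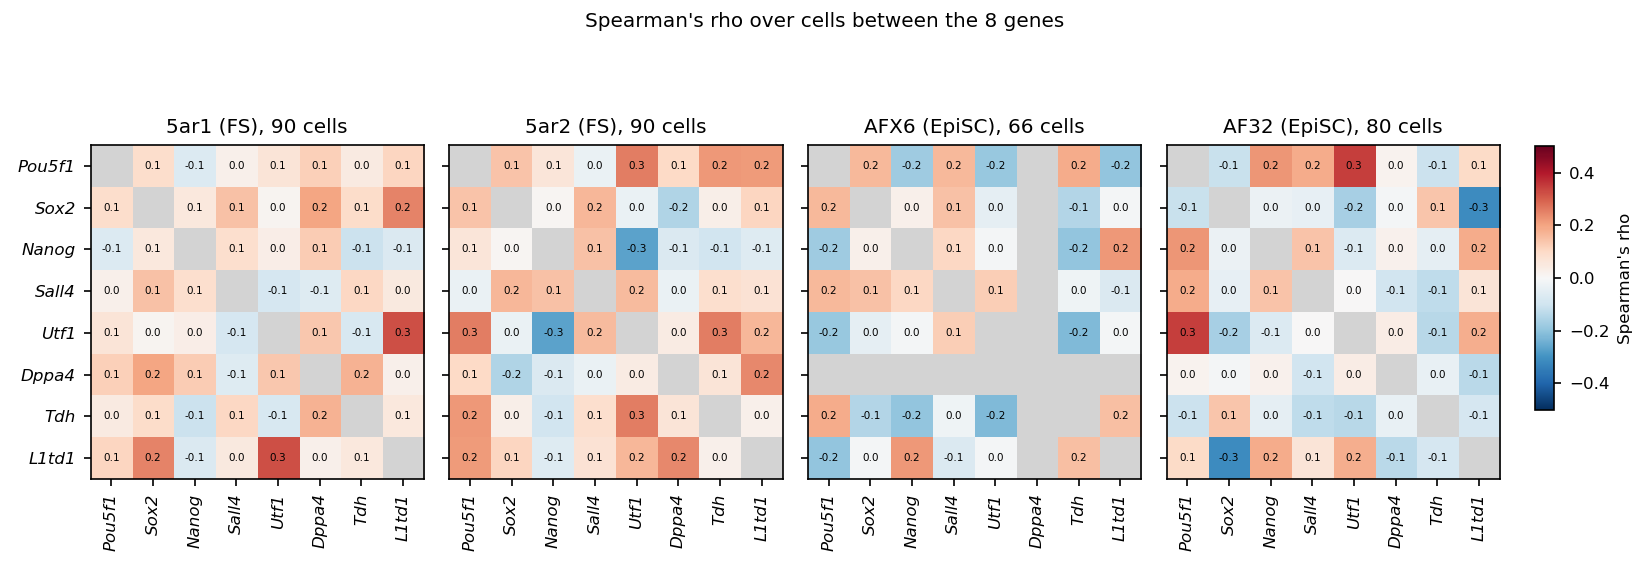
Spearman's rho of CPM over the kept cells of each line for every pair of the 8 genes, on a scale from -0.5 (blue) to 0.5 (red); grey marks the diagonal and Dppa4 in AFX6, which had no counts. Values ranged from -0.31 to 0.35, and no pair was strongly coloured in all 4 lines.

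The genes whose level over cells was most like that of each core factor were found among those with at least 20 CPM on average in each line. For Pou5f1 these were Ldha (lactate dehydrogenase A), Pfkl (liver phosphofructokinase), Pgk1 (phosphoglycerate kinase), Fkbp4 (an Hsp90 co-chaperone) and Pkm (pyruvate kinase), with a mean rho over the 4 lines of 0.35, 0.34, 0.29, 0.28 and 0.28. The median over all 5758 genes was 0.02. Ldha had a rho of 0.31, 0.27, 0.18 and 0.65 in 5ar1, 5ar2, AFX6 and AF32, and Pkm one of 0.10, 0.25, 0.16 and 0.59, so that AF32 held the highest value for both. Without the 6 cells under 5 CPM of Pou5f1, the mean rho of these 5 genes was 0.24 to 0.33, and Ldha, Pfkl and Pgk1 stayed among the first 5. For Sox2 the 5 genes were Pcbp1 (0.27), Khsrp (0.25), Trim28 (0.23), Trim59 (0.23) and Vegfb (0.22), and for Nanog they were Ctnnb1 (0.25), Ubr7 (0.24), Armc8 (0.23), Pgam5 (0.22) and Maz (0.22), each a mean rho over 4 lines. Pcbp1 and Khsrp encode RNA-binding proteins, Trim28 a co-repressor, and Ctnnb1 the adhesion and Wnt signalling protein beta-catenin. Of these, Pcbp1 ranged from 0.55 in 5ar1 to 0.05 in AF32 and Maz, a zinc-finger protein, from 0.50 in AFX6 to 0.04 in 5ar2. All were selected for their value.

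The 6 cells under 5 CPM of Pou5f1 were not alike in the other genes. Cell 26 of 5ar1 had low counts of all members, with Sall4 highest at 5.57 CPM, and had 10109 CPM of Tubb3, a neuronal tubulin. In cell 49 of 5ar2 no member passed 3.92 CPM, and Nes, an intermediate filament of neural progenitors, was at 210.5 CPM. Cell 41 of 5ar1 kept Sall4 at 134 CPM and Otx2 at 32.1 CPM but had 0.526 CPM of L1td1 and 3.42 CPM of Utf1. Its Dnmt3b was at 5.52 CPM, and its trophoblast and extraembryonic endoderm markers summed to 89.1 CPM. Over the cells of 5ar1 that sum had a median of 1.80 CPM and a highest value of 295 CPM. Cell 74 of AF32 similarly kept Sall4 at 93.3 CPM with every other member under 3 CPM. Cell 70 of AF32 had 2369 CPM of T (Brachyury), the primitive streak factor, and 25.4 CPM of Foxa2, with L1td1 at 88.1 CPM. Its Eomes was at 0.172 CPM, and T and Foxa2 made up nearly all of its summed streak, mesoderm and endoderm markers, 2395 CPM. Its neural markers summed to 68.0 CPM, though Tubb3 and Nes were at 0.687 and 0.172 CPM. Cell 22 of AFX6 kept Utf1 at 1323 CPM, Nanog at 172 CPM and Dnmt3b at 521 CPM, and had the lowest total of all kept cells, 3022666 counts. For Pou5f1, the carry-over reference lay between 1.44 and 1.58 CPM in the 4 lines, close to the 1.89 to 3.68 CPM of these cells.

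Other genes of the circuit were described from lists of known genes, by counts and the median log2 fold change (FS over EpiSC) beside that of all genes tested, which was -0.01. The counts of genes whose lines do not overlap are to be read against 26.6% of all genes with FS lines higher and 21.7% with EpiSC lines higher. No list gene passed the edgeR threshold. Among 17 tested targets or close associates of Oct4 and Sox2, the FS lines lay above both EpiSC lines for 8 and below for 4, with a median of 0.66. Lefty1 and Tdgf1, a Nodal antagonist and the Nodal co-receptor Cripto, were lowest in FS lines, with 4.89 and 10.7 CPM of Lefty1 in 5ar1 and 5ar2 against 687 CPM in AFX6 and 3818 CPM in AF32. Tdgf1 stood at 27.4, 36.7, 839 and 1398 CPM, so that both shared the order of Nanog. Zscan10, a zinc-finger partner of Oct4 and Sox2, was higher in both FS lines, at 257, 226, 83.3 and 84.3 CPM. Dppa2, the relative of Dppa4, had 7.22 and 0.862 CPM in the FS lines and 0 in both EpiSC lines.

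Of 23 tested protein partners of the core factors, 9 had FS lines above both EpiSC lines, 2 had them below and 12 overlapped, with a median of 0.33. The lines did not overlap for 48.3% of all genes, so the partners stood at the background. Trim28 had 1314, 1122, 533 and 642 CPM in 5ar1, 5ar2, AFX6 and AF32, and the deacetylase Hdac2 471, 413, 407 and 443 CPM, so the former separated the states and the latter did not. The list of POU and SOX relatives also holds Dppa2, Sall1, Sall2 and Sall3, which are neither POU nor SOX genes. Of its 21 tested genes, 8 had FS lines higher (26.6% of all genes), with Dppa2, Sall2 and Sall3 among these. EpiSC lines were higher for 0 (21.7% of all genes), and the median was 0.31. Sox4 stood at 108, 105, 59.6 and 70.0 CPM and the Sall4 relative Sall2 at 84.8, 83.8, 37.9 and 47.5 CPM. Pou2f1, the widely expressed Oct1, overlapped at 34.5, 38.0, 33.4 and 44.1 CPM.

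Around Tdh, 8 of 14 genes of threonine and one-carbon metabolism had FS lines above both EpiSC lines (26.6% of all genes) and 0 had them below (21.7% of all genes), with a median of 0.35. Mat2a, which makes S-adenosylmethionine, stood at 956, 785, 157 and 247 CPM, and the mitochondrial folate enzyme Mthfd2 at 379, 368, 108 and 135 CPM. Mthfd1, its cytosolic relative, overlapped at 668, 603, 889 and 467 CPM. Formative and post-implantation epiblast genes had FS lines higher for 8 of 16 and EpiSC lines higher for 1, against the same shares of all genes, with a median of 0.56. Fgf5 had 229, 272, 30.7 and 44.9 CPM, and Dnmt3b, a de novo DNA methyltransferase, 2243, 1434, 493 and 616 CPM. The naive factors were low in all lines, with a median of -0.01 over the 8 tested, where Fgf4 was the most abundant on average at 44.2, 25.7, 25.8 and 3.73 CPM. Streak, mesoderm and endoderm markers had a median of -0.15 over 9 tested genes, and neural and extraembryonic markers -0.26 and 0.33 over 6 each. Eomes, a streak factor, had 61.3 and 48.2 CPM in the FS lines against 6.62 and 5.84 CPM in AFX6 and AF32. T was higher in both EpiSC lines, with 0.144, 0.179, 0.382 and 39.1 CPM in 5ar1, 5ar2, AFX6 and AF32. At least 5 CPM of T was found in only 1 cell each of 5ar1, 5ar2 and AFX6 and in 2 cells of AF32. Cell 70 of AF32, at 2369 CPM, held most of that line's T. Foxa2 had 0.00232, 1.69, 0.00601 and 7.91 CPM, so the states overlapped, with 5ar2 above AFX6. In AF32, 13 cells had at least 5 CPM of Foxa2. The part of any of these marker levels in the values of the 8 genes was not tested.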

How the data were processed

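Single-cell RNA sequencing (Smart-seq2) of 384 mouse cells from 4 lines was analysed, with line and state taken from the labels. The authors deposited raw counts per gene and cell, made with STAR 2.7.3a on GRCm38.p6 and featureCounts 2.0.0 per the submitters' processing notes. They also deposited a score per gene in whole numbers, normalized with sctransform. Which of its outputs this is was not given in the sources used here, and it was treated as depth-corrected, in an alternative only. Alignment and counting were not repeated, and reads that multiple genes share could affect levels.

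Cells with at least 3000000 counts were kept, and levels are CPM of the raw counts. Genes were matched to GENCODE M21 (31565 of 31617 matched), which gave positions and exonic lengths. Smart-seq2 reads are not independent molecules, so Clopper-Pearson and exact conditional 95% intervals (scipy 1.17.1) cover counting error only.

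Raw counts, summed within each line, entered the quasi-likelihood test of edgeR 4.0.16 under R 4.3.3 (TMM factors, genes passing filterByExpr), so that lines are the replicates. Standard errors of its fold changes were calculated as the absolute log2 fold change over the square root of the F statistic. Alternatives were DESeq2 1.42.0, DESeq2 size factors, limma 3.58.1 on log2(mean CPM + 1), no filter, other depths and each line left out. The fit, correlations and trend were tested on simulated data. The trend was a lowess fit (statsmodels 0.14.6) of log10 squared CV on log10 mean, and scripts ran under Python 3.11.15 (numpy 2.4.6, pandas 2.3.3). The carry-over reference is the share at which Eif2s3y, Ddx3y, Uty and Kdm5d were found in AFX6. Whole-chromosome expression is the mean over a chromosome's protein-coding genes with at least 20 CPM, each relative to its own mean, over the median autosome of the cell.

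Besides the 8 genes, the text names at most 4 genes of each list, by mean level or by absolute log2 fold change, and the 5 genes most like each core factor. The members and lists were chosen with earlier results of these data known. The 6 cells with low Pou5f1, the chromosome ratio and the carry-over genes were chosen after values were seen. No sequence window was held for Sall4, Dppa4 and Tdh.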

Additional observations from a re-analysis of the deposited data

How the results depend on the processing

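The count of genes called between FS cells and EpiSCs was 0 with edgeR and in every alternative except DESeq2, which called 1808, and the cause was not tested. The same change called Nanog (-3.20), Sall4 (1.45), Dppa4 (6.35) and Tdh (9.38), as log2 fold changes. The direction turned for Pou5f1 and Utf1 alone, with a line left out, over ranges of -0.14 (without 5ar1) to 0.26 and of -0.51 (without AF32) to 1.35. Each line left out in turn gave -3.67 to -2.39 for Nanog, 0.47 to 1.80 for Sox2, 0.98 to 2.24 for Sall4, 5.39 to 13.8 for Dppa4 and 0.68 to 3.30 for L1td1, with AFX6 left out at the end nearest 0 of the last 4 and AF32 at the other, and 8.49 (without 5ar2) to 9.88 (without 5ar1) for Tdh. The share of cells with all 3 core factors moved to 53.3% in 5ar1 at a limit of 1 CPM, and at 20 CPM to 16.7% (5ar1), 18.9% (5ar2), 7.58% (AFX6) and 25.0% (AF32), which made AF32 the highest line. The other 27 values of this share, the 8 alternatives for the pair count (0 in each) and 62 values of the CV moved by less than their interval or spread. A limit of 0.1 on the pair count and leaving out the 6 cells low in Pou5f1 were chosen after seeing the data. Each line has 1 culture and no molecular identifiers, which limits low genes such as Dppa4. No paired analysis was possible because cell numbers name wells and pair nothing across lines.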
